A study of Rattus norvegicus with 119 samples.

Results

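The genes described here build cholesterol and fatty acids, together with the proteins that switch those genes on. Of 35 genes listed by name, 34 had a probe: 16 of the sterol branch, 5 regulators and 13 of the fatty acid branch. The platform's gene symbol matched 31 of them, and a RefSeq accession matched the other 3, Msmo1, Sc5d and Scd2. Each gene was read from its probe with the highest mean signal, among 16951 genes with a probe. Hmgcs1 was not analysed here. Acacb, an acetyl-CoA carboxylase of the mitochondrial surface, had a mean log2 signal of 5.10, under the floor of 5.26 set for testing, which left 33 members among 12713 tested genes.

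The samples were bladder urothelium, the epithelial lining, scraped from opened bladders of male and female Sprague-Dawley rats, with 1 animal per single-colour Agilent array. The rats had received oral vehicle (methylcellulose), pioglitazone hydrochloride at 16 (low dose) or 63 mg/kg/day (high dose), or rosiglitazone maleate at 10 mg/kg/day, for 3, 28 or 90 days. Both drugs are thiazolidinediones, which activate the nuclear receptor PPAR-gamma. Longer dosing also means older animals. Of 119 arrays, 3 were marked by the submitters as failing quality control, and the remaining 116 fell into 24 groups of 4 or 5 animals, with 30 vehicle, 28 low-dose, 28 high-dose and 30 rosiglitazone arrays.

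Cholesterol is made from acetyl-CoA through mevalonate, isoprenoids, squalene and lanosterol, and fatty acids are made from malonyl-CoA, then elongated and desaturated. Both branches are switched on by the transcription factors encoded by Srebf1 and Srebf2, which the escort protein Scap carries out of the endoplasmic reticulum when sterols are low and which Insig1 and Insig2 hold back when sterols are high. The Srebf2 product acts mainly on sterol genes and the Srebf1 product mainly on fatty acid genes. These factors bind DNA beside the factors NF-Y, which reads CCAAT, and Sp1, which reads GGGCGG.

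The 250 bases before the transcription start are shown for 5 members because the results below turn on them. They come from RefSeq on the GRCr8 build and run 5′ to 3′ on the gene's strand. Capitals mark the NF-Y motif CCAAT, the Sp1 motif GGGCGG and a form of the sterol regulatory element, TCANNCCAC, on either strand. The intervals are chr12:47819504-47819753 (minus strand) for Mvk, chr19:67414975-67415224 (minus) for Mvd, chr2:176804817-176805066 (minus) for Fdps, chr7:115543057-115543306 (plus) for Srebf2 and chr1:216172034-216172283 (minus) for Fads2.
Mvk: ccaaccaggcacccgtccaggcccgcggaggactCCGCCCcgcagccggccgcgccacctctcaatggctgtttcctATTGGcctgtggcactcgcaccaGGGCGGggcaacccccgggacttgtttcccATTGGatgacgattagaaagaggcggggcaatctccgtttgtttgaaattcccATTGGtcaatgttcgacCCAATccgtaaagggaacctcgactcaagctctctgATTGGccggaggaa
Mvd: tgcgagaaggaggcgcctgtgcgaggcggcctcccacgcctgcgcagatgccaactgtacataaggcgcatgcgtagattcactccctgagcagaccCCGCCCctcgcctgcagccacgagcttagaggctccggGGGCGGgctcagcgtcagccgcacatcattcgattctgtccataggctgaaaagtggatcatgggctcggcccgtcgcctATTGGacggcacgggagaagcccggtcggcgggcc
Fdps: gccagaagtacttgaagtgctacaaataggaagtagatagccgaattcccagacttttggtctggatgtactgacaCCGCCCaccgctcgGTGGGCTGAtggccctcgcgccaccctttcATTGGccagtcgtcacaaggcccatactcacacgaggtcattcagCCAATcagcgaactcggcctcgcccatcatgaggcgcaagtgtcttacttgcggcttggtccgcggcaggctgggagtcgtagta
Srebf2: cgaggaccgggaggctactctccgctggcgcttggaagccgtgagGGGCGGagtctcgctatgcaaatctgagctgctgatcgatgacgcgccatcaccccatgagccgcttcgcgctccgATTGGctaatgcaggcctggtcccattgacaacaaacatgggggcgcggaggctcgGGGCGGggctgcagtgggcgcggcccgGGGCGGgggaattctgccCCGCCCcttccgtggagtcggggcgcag
Fads2: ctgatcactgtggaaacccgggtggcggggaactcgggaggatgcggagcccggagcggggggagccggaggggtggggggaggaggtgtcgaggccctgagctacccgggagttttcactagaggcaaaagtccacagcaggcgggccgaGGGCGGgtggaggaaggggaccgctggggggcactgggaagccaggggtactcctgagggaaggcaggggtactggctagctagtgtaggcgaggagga

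Of the 27 members with a single promoter entry, CCAAT was present in 11 of 13 sterol branch promoters (84.62%) and 5 of 10 fatty acid branch promoters (50.0%), against 34.02% of 33469 promoters of the same length. GGGCGG was present in 11 of 13 sterol and 4 of 10 fatty acid branch promoters, against 30.47% of all. TCANNCCAC was found in Fdps, Insig2 and Elovl5 and in 3.3% of all promoters, and the stricter TCACNCCAC in 0 of the 27 and 0.97% of all. Mvk held CCAAT 5 times, and Fads2 held it 0 times. A match is a description of the letters and not a binding site.

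Median log2 signal per array was 6.40 to 6.63. Urothelium markers were high on every array, with a mean of 13.39 to 15.30 over 12 genes. The smooth muscle markers ranged from 6.75 to 15.77 in the mean of 9 genes, a span of 9.03 on the log2 scale, and the 8 adipocyte markers from 5.75 to 12.34, so signal from other tissue differed between scrapings. In such samples, fewer cells of a type and less RNA per cell cannot be told apart. With a median correlation to the other arrays under 0.9, 5 arrays stood apart: high-dose female day 3 replicate 3, low-dose female day 28 replicate 5, vehicle male day 3 replicate 3, rosiglitazone female day 90 replicate 1 and high-dose male day 28 replicate 4. The other arrays were at 0.92 or above.

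Differences below are treated minus vehicle on the log2 scale, from a limma model over all groups. A gene is called at a Benjamini-Hochberg adjusted p under 0.05 over all tested genes. The 3 treatments share the same vehicle animals. Where the groups of a called member are said not to overlap, the same values made the call, so this adds no support. The share of all tested genes without overlap was not computed. Sterol branch members vary together across animals, with a median r of 0.53 over 120 pairs, as given below. Counts of members on one side of 0, and shares at an unadjusted p, are therefore not made of independent results.

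Averaged over both sexes and all days, few members changed. With low-dose pioglitazone 2 of 33 members were called, 1 higher and 1 lower, where 2.84% of all tested genes were called. With high-dose pioglitazone 1 was called, against a background of 6.59%, and with rosiglitazone 1, against 5.62%. Shares this near the background are no result about the members as a set. The called members were Fads2, Acaca and Srebf2.

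**Figure D1:**
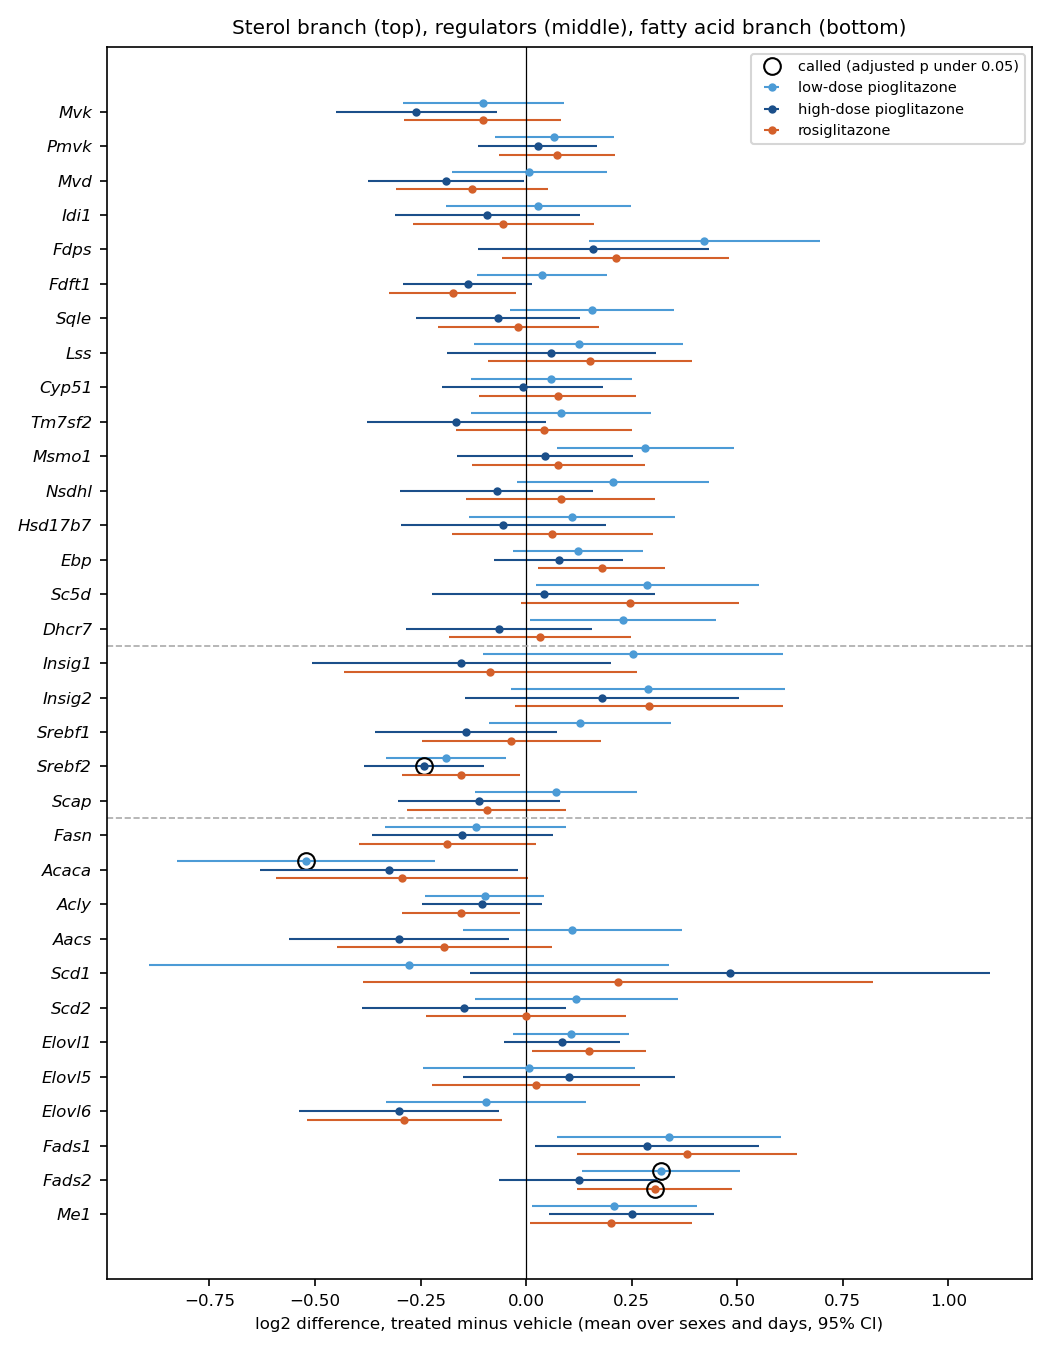
Log2 difference from vehicle for each of the 33 tested members (rows), averaged over sexes and days, with 95% confidence intervals, for the 3 treatments (colours). Black rings mark called members: Acaca and Fads2 with the low dose, Srebf2 with the high dose, Fads2 with rosiglitazone; most other intervals include 0.

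In the sterol branch 0 of 16 members were called with any treatment average in limma, while 4, 2 and 2 had an unadjusted p under 0.05 in the order low dose, high dose and rosiglitazone. As shares these were 25%, 12.5% and 12.5% of the branch, against 18.6%, 19% and 20.5% of all tested genes. The branch median was 0.12 with the low dose (all tested genes 0.01), -0.06 with the high dose (all -0.01) and 0.07 with rosiglitazone (all -5e-04). With the low dose 15 of 16 members lay above 0, all except Mvk. With the high dose 6 of 16 lay above 0, and with rosiglitazone 11 of 16. Tissue markers differed with the low dose too. Above 0 lay 11 of 12 urothelium markers, and below 0 all 9 smooth muscle, all 10 fibroblast and 7 of 8 adipocyte markers. Given smooth muscle and adipocyte marker means as covariates, Mvd (-0.0035) and Idi1 (-0.0015) also lay below 0 with the low dose. The part of the urothelium and fibroblast markers was not tested.

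Fdps, which makes farnesyl diphosphate, had the smallest adjusted p of the branch. Its log2 signal in 30 vehicle animals was 11.96 at the lowest, 13.39 at the median and 14.19 at the highest, and 12.25, 13.80 and 14.54 in 28 low-dose animals. The ranges overlapped almost completely. The low-dose difference was 0.42 (SE 0.14, adjusted p 0.0723 in limma), above 0 in 6 of 6 combinations of sex and day, and it was 0.40 with an adjusted p of 0.0338 without the 5 arrays that stood apart. The high-dose difference was 0.16 and the rosiglitazone difference 0.21, neither called.

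Msmo1, a methyl sterol oxidase, was 0.28 above vehicle with the low dose (SE 0.11, adjusted p 0.122 in limma). Its low-dose values ran from 13.44 over a median of 14.36 to 14.91, against 13.15, 14.15 and 14.62 in vehicle. Mvk, which phosphorylates mevalonate, lay 0.26 below vehicle with the high dose (SE 0.10, adjusted p 0.0868). Its vehicle values were tight, 9.06 to 9.85, while high-dose values ran from 6.82 to 9.73.

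The other steps of the route were uncalled with each treatment. With the low dose, the mevalonate steps Pmvk, Mvd and Idi1 differed by 0.07, 0.01 and 0.03, and the squalene steps Fdft1, Sqle and Lss by 0.04, 0.16 and 0.12. The lanosterol demethylase Cyp51 and the sterol reductase Tm7sf2 differed by 0.06 and 0.08, Nsdhl and Hsd17b7, which remove methyl groups, by 0.21 and 0.11, and the late enzymes Ebp, Sc5d and Dhcr7 by 0.12, 0.29 and 0.23. Of these, Sc5d and Dhcr7 had the smallest adjusted p, 0.231 and 0.247 in limma.

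Among the regulators, Srebf2 fell with high-dose pioglitazone. Its log2 signal was 11.90 at the lowest, 12.35 at the median and 13.35 at the highest in 30 vehicle animals, and 11.50, 12.11 and 12.45 in 28 high-dose animals. The ranges overlap, with the high-dose median lower. The difference was -0.24 (SE 0.07, adjusted p 0.0241 in limma), below 0 in 5 of 6 combinations. With the low dose it was -0.19 (adjusted p 0.128) and with rosiglitazone -0.15 (adjusted p 0.196). Leaving out vehicle replicate 1 in all 6 groups gave -0.20 for the high dose and ended the call, as did leaving out vehicle replicate 2 or high-dose replicate 2 or 3.

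Srebf1 was at a mean of 11.82 ± 0.35 (SD within groups, n = 30) in vehicle, 11.95 ± 0.19 (n = 28) with the low dose, 11.68 ± 0.51 (n = 28) with the high dose and 11.78 ± 0.52 (n = 30) with rosiglitazone. Insig1, itself a target of the sterol-sensing factors in mammals, was at 9.82 ± 0.69, 10.08 ± 0.60, 9.67 ± 0.85 and 9.74 ± 0.60 in the same order. Neither was called. Insig2 lay 0.29, 0.18 and 0.29 above vehicle with the low dose, high dose and rosiglitazone, uncalled. Without the 5 arrays that stood apart, Insig2 was called at 0.36, 0.37 and 0.36.

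In the fatty acid branch, Fads2, the first desaturase of polyunsaturated fatty acid synthesis, rose with low-dose pioglitazone and rosiglitazone. Its log2 signal was 7.95, 9.42 and 10.03 at the lowest, median and highest of 30 vehicle animals. It was 8.76, 9.69 and 10.16 with the low dose and 8.57, 9.62 and 10.42 with rosiglitazone. The ranges overlap and the treated medians are higher. The differences were 0.32 (SE 0.09, adjusted p 0.0429 in limma) and 0.30 (SE 0.09, adjusted p 0.0316), above 0 in 6 of 6 combinations each. Leaving out single replicate numbers ended the call in 8 of 10 fits with the low dose, where the difference stayed between 0.27 and 0.36, and in 7 of 10 with rosiglitazone, between 0.27 and 0.34. Including the failing arrays ended both calls (adjusted p 0.755 and 0.676), and dropping the filter on low signal ended that with the low dose (adjusted p 0.0563). The high-dose difference was 0.12 (adjusted p 0.517), above 0 in 4 of 6. The urothelium marker mean, with which Fads2 varied at r = 0.68 across 116 arrays, was above vehicle in 6 of 6 combinations with the low dose and 5 of 6 with rosiglitazone, and its part in the result was not tested.

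Fads1, the next desaturase of that route, lay 0.34, 0.29 and 0.38 above vehicle with the low dose, high dose and rosiglitazone (adjusted p 0.148, 0.215 and 0.0664 in limma). It was above 0 in 5, 6 and 5 of 6 combinations. Vehicle values ran from 7.87 over a median of 9.75 to 10.29, and rosiglitazone values from 7.96 over 9.98 to 11.28. Without the 5 arrays that stood apart Fads1 was called with each treatment, at 0.37, 0.37 and 0.44. It was also called with the high dose and rosiglitazone, at 0.40 each, with smooth muscle and adipocyte marker means as covariates (adjusted p 0.0195 and 0.0181).

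Acaca, the acetyl-CoA carboxylase that makes malonyl-CoA for synthesis, fell with low-dose pioglitazone. Its log2 signal was 5.89, 6.53 and 10.24 at the lowest, median and highest of 30 vehicle animals, and 4.89, 6.27 and 7.99 with the low dose. A single vehicle animal, female day 3 replicate 2, made the top value, and its adipocyte marker mean was 11.25, the highest of the vehicle animals. The difference was -0.52 (SE 0.15, adjusted p 0.0412 in limma), below 0 in 6 of 6 combinations. Without vehicle replicate 2 it was -0.42 with an adjusted p of 0.114, and 6 of 10 single leave-outs ended the call. The high-dose difference was -0.32 (adjusted p 0.223) and the rosiglitazone difference -0.29 (adjusted p 0.254). Acaca varied with the adipocyte marker mean at r = 0.45 across 116 arrays. Given those marker covariates, it was called with the low dose at -0.47 (adjusted p 0.0394) and with the high dose at -0.46 (adjusted p 0.0221).

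Of the other fatty acid members, Elovl6, which lengthens saturated chains, lay 0.30 below vehicle with the high dose and 0.29 below with rosiglitazone, uncalled (adjusted p 0.122 and 0.131 in limma). With the marker covariates it was called with rosiglitazone, at -0.34 (adjusted p 0.0206). Me1, malic enzyme, which supplies NADPH, lay 0.21, 0.25 and 0.20 above vehicle, uncalled. Fasn, fatty acid synthase, lay 0.12, 0.15 and 0.19 below vehicle and Acly, which makes cytosolic acetyl-CoA, 0.10, 0.10 and 0.15 below, uncalled. The high-dose difference of Fasn was -0.26 with the marker covariates (adjusted p 0.0656). Further probes of Elovl1, Elovl6, Fdps, Insig2 and Me1 had the same sign as the probe used with each treatment.

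**Figure D2:**
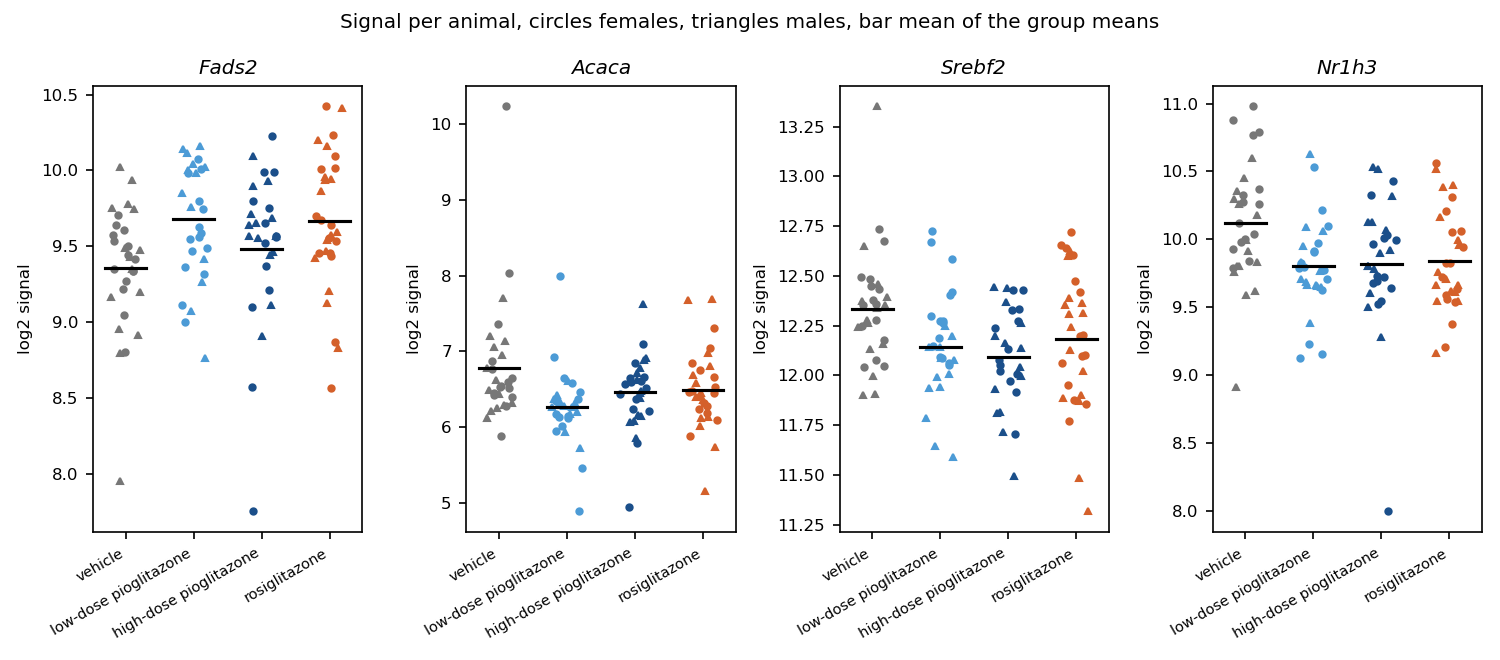
Log2 signal per animal for Fads2, Acaca, Srebf2 and Nr1h3 (panels) by treatment, circles for females, triangles for males, bars for the mean of the group means. The treatments overlap for each gene; the vehicle animal at 10.24 stands alone in the Acaca panel.

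Of 27 tested other genes of the pathways (sterol transport, oxysterol receptors, precursor supply and elongation), only Nr1h3 was called in a treatment average. That is 1 of 27 with each treatment, where 2.84%, 6.59% and 5.62% of all tested genes were called for the low dose, high dose and rosiglitazone. Such a share is no result about these genes as a set. Nr1h3 encodes the oxysterol receptor LXR-alpha, which in mammals activates Srebf1. It fell with low-dose pioglitazone by 0.32, with high-dose pioglitazone by 0.30 and with rosiglitazone by 0.29 (adjusted p 0.0349, 0.0261 and 0.0378 in limma), below 0 in 5 of 6 combinations each. Nr1h3 is also expressed by macrophages, and the leukocyte marker mean was below vehicle in 6 of 6 combinations with each treatment, with 5, 7 and 6 of its 10 genes called lower. Its part in the Nr1h3 result was not tested. The 3 treatments share the same vehicle animals, so the 3 falls are not independent. Leave-outs and other settings are given for members only, so how far the Nr1h3 calls hold is not known here.

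Between the pioglitazone doses, 0 of 33 members were called, where 0% of all tested genes were called. At an unadjusted p under 0.05 stood 13 members, or 39.4%, against 8.57% of all tested genes. All 16 sterol branch members lay lower with the high than the low dose, with a median of -0.19 (all tested genes -0.03). Dhcr7, which completes cholesterol, differed by -0.30 (SE 0.11, unadjusted p 0.0105), Aacs by -0.41 (SE 0.13, unadjusted p 0.00276) and Insig1 by -0.41 (SE 0.18, unadjusted p 0.0279), each with an adjusted p of 0.563 in limma. Of the tissue markers 0 were called. All 12 urothelium markers were lower with the high dose (median -0.12), all 8 adipocyte markers higher (median 0.80, 6 of 8 at an unadjusted p under 0.05), and all 10 fibroblast and 9 smooth muscle markers higher (medians 0.44 and 0.97). The smooth muscle marker mean was 10.40 ± 2.31 (SD within groups, n = 28) with the low dose and 11.31 ± 2.78 (n = 28) with the high dose. With smooth muscle and adipocyte marker means as covariates, the median over the 33 members was -0.10, against -0.16 without. The part of the urothelium and fibroblast markers in the result was not tested.

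By day, averaged over the sexes, 2 of the member differences in 9 comparisons were called, where 1.08% of all tests were called. Both were falls with high-dose pioglitazone at day 90, where 4.24% of tested genes were called.

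With rosiglitazone the sterol genes, averaged over the sexes, lay above vehicle at day 3 and below it at day 90. At either day 0 members were called. At day 3, 16 of 16 sterol members were above 0, with a median of 0.30 (all tested genes 0.04). Since these members vary together across animals, their signs are not 16 separate results. There 0.323% of tested genes were called, and 15 of 33 members (45.5%) had an unadjusted p under 0.05, against 15.7% of all tested genes. At day 90, 0 of 16 were above 0, with a median of -0.21 (all tested genes -0.04), where 1.92% of tested genes were called. At day 90 the female and male differences were also compared. The female difference lay below the male one for 14 of 16 sterol members (median -0.53, all tested genes 0.01), with 0 called. Of these 16, 1 had an unadjusted p under 0.05 in limma (6.25%, against 8.31% of all tested genes). In the same comparison of the sexes 10 of 12 urothelium markers lay below 0 (median -0.56). All 9 smooth muscle markers lay above 0 (median 1.73), and 0 markers of either kind were called. That comparison of the sexes was added after the values were seen.

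Fdps had the smallest unadjusted p at day 3. It was at 12.36, 12.53, 13.67, 13.40 and 12.87 in vehicle females and at 14.15, 13.49, 13.64, 13.81 and 13.52 with rosiglitazone. In males it was at 13.35, 13.67, 12.20, 14.19 and 13.58 in vehicle and at 14.45, 13.74, 14.42, 13.27 and 14.08 with rosiglitazone. The treated animals tended higher, and the groups overlapped in both sexes. The difference was 0.67 (SE 0.23, adjusted p 0.184 in limma) at day 3, 0.04 at day 28 and -0.08 at day 90.

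The tissue markers lay on opposite sides at those days too. At day 3, 11 of 12 urothelium markers were above vehicle (median 0.36) and 9 of 9 smooth muscle markers below (median -0.86). At day 90, 9 of 12 urothelium markers were below vehicle (median -0.13) and 9 of 9 smooth muscle markers above (median 0.79). With smooth muscle and adipocyte marker means as covariates, the median over the 33 members was 0.25 at day 3 (0.29 without). At day 90 it was -0.22 (-0.26 without). These medians cover all tested members and not the sterol branch alone. The part of the urothelium markers was not tested.

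Mvd, which makes isopentenyl diphosphate, was at 11.92, 11.79, 11.65, 11.67 and 11.77 in vehicle females at day 90 and at 11.26, 11.11, 11.45, 11.50 and 11.11 in high-dose females. In vehicle males it was at 11.85, 12.12, 11.75, 11.78 and 11.88, and in high-dose males at 11.39, 11.07, 10.90, 11.28 and 11.57. Treated and vehicle animals did not overlap in either sex. The difference was -0.55 (SE 0.16, adjusted p 0.0233 in limma). It was -0.29 with the low dose (adjusted p 0.83) and -0.50 with rosiglitazone (adjusted p 0.0728) at the same day. Leaving out single replicate numbers gave an adjusted p over 0.05 in 5 of 10 fits, with differences no smaller in size than 0.51.

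Srebf2 at day 90 was at 12.48, 12.43, 12.74, 12.45 and 12.36 in vehicle females and at 11.70, 11.97, 12.05, 12.08 and 12.43 in high-dose females. Vehicle males were at 12.38, 12.24, 12.16, 12.39 and 12.65, and high-dose males at 12.14, 11.81, 12.00, 11.93 and 12.27. The highest treated animal of each sex lay within the vehicle range. The difference was -0.39 (SE 0.12, adjusted p 0.0461 in limma), and 9 of 10 single leave-outs ended the call.

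Tissue markers lay apart from vehicle in this comparison too. A change of these markers by the drug itself and a change of tissue content cannot be told apart here. The same limit holds where their means serve as covariates. All 8 adipocyte markers lay above vehicle (median 1.34, 5 at an unadjusted p under 0.05), as did all 9 smooth muscle markers (median 0.73), with 0 called, and 5 of 10 leukocyte markers were called lower. With smooth muscle and adipocyte marker means as covariates Mvd stayed called at -0.53 (adjusted p 0.0364), and Srebf2 was at -0.38 (adjusted p 0.0528). The part of the leukocyte markers was not tested.

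Within sex and day, 8 member differences were called over 18 comparisons, where 0.84% of all tests were called. All were falls in females, and 6 of them came with rosiglitazone at day 90, where 2.45% of all tested genes were called. The other 2 came with high-dose pioglitazone at day 3, where 8.46% were called.

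After 90 days of rosiglitazone, females were lower in Aacs, Fdft1, Mvd, Srebf2, Fasn and Elovl6. The sterol branch median was -0.45, with 15 of 16 members below 0, against -0.04 over all tested genes. The fatty acid branch median was -0.22, with 7 of 12 below 0. One of the 5 treated animals, replicate 1, was among the arrays that stood apart.

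Aacs, which activates acetoacetate for lipid synthesis, was at 10.13, 11.17, 9.92, 10.98 and 10.68 in vehicle females and at 8.24, 9.68, 8.75, 9.80 and 9.27 with rosiglitazone. The groups did not overlap. The difference was -1.43 (SE 0.31, adjusted p 0.00403 in limma), a 2.69-fold fall, and it was -1.20 (adjusted p 0.0114) without the 5 arrays.

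Mvd was at 11.07, 10.91, 10.99, 11.16 and 10.82 with rosiglitazone, below each of the 5 vehicle females given above. The difference was -0.77 (SE 0.22, adjusted p 0.0388 in limma) and -0.79 (adjusted p 0.0324) without the 5 arrays. Srebf2 was at 12.06, 11.86, 11.88, 11.77 and 11.95, also below each vehicle female. Its difference was -0.59 (SE 0.17, adjusted p 0.0432) and -0.63 (adjusted p 0.0397) without the 5 arrays.

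Fdft1, squalene synthase, was at 11.76, 12.21, 11.76, 11.87 and 12.18 in vehicle females and at 10.15, 11.60, 11.49, 11.66 and 11.45 with rosiglitazone. The groups did not overlap, and replicate 1 lay far below the rest. The difference was -0.69 (SE 0.19, adjusted p 0.0245 in limma) and -0.41 (adjusted p 0.198) without the 5 arrays, a change of over 1.5 times.

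Fasn was at 12.47, 12.92, 12.80, 12.80 and 12.75 in vehicle females and at 11.17, 12.08, 11.70, 12.08 and 12.09 with rosiglitazone, without overlap. The difference was -0.92 (SE 0.26, adjusted p 0.032 in limma) and -0.76 (adjusted p 0.109) without the 5 arrays. Elovl6 was at 12.61, 13.14, 12.45, 13.04 and 12.79 in vehicle and at 10.68, 12.63, 11.45, 12.26 and 12.10 with rosiglitazone, and these overlapped. Its difference was -0.98 (SE 0.29, adjusted p 0.0412) and -0.69 (adjusted p 0.179) without the 5 arrays.

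**Figure D3:**
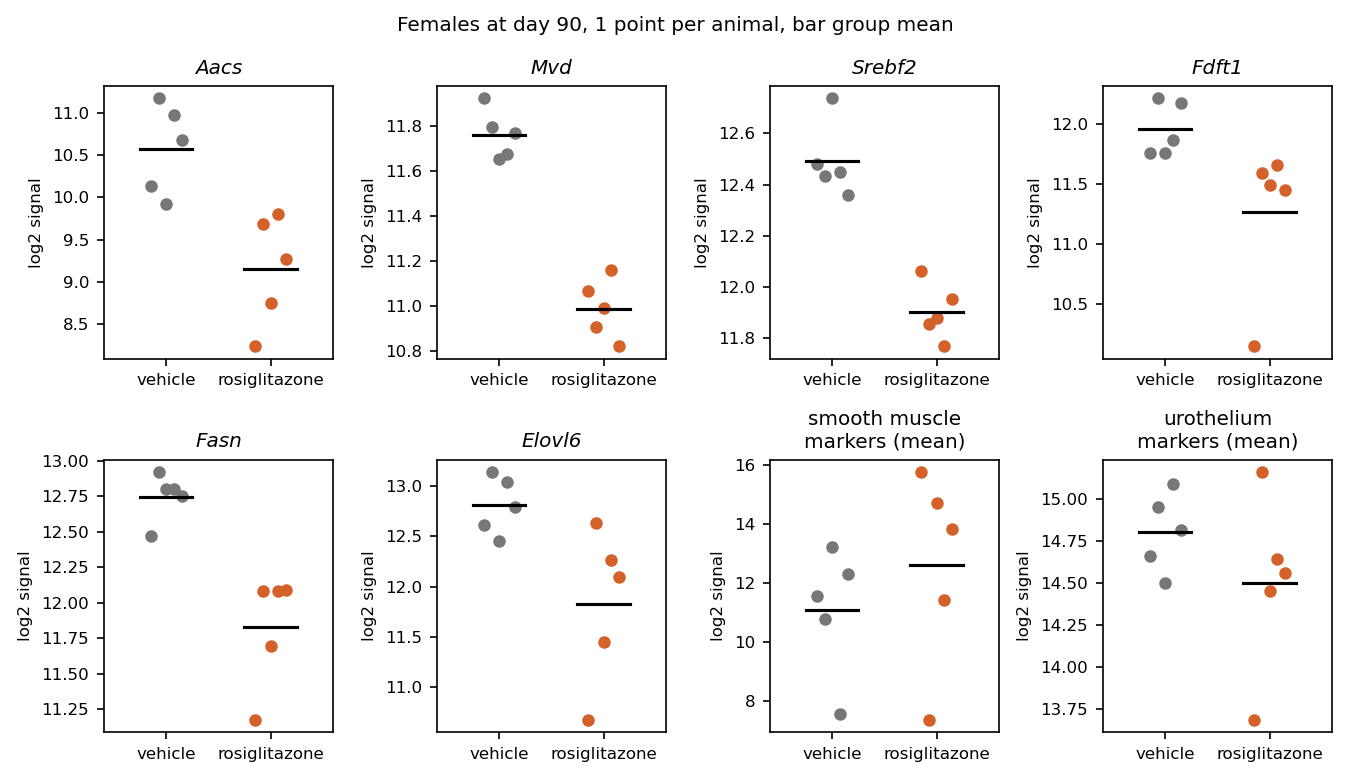
Log2 signal of the 6 members called in females after 90 days of rosiglitazone, with the smooth muscle and urothelium marker means, 1 point per animal and a bar at each group mean. Treated animals lie below vehicle without overlap for Aacs, Mvd, Srebf2, Fdft1 and Fasn, while the marker means overlap. The members shown were called from these same values.

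Other members at that time missed the threshold. Insig1 was at 9.29, 10.13, 8.99, 9.91 and 10.10 in vehicle and at 6.57, 8.85, 8.71, 9.14 and 8.49 with rosiglitazone, a difference of -1.33 (SE 0.43, adjusted p 0.0726 in limma). Idi1, which isomerises isopentenyl diphosphate, differed by -0.87 (adjusted p 0.0539) and Scd2, a stearoyl-CoA desaturase, by -0.89 (adjusted p 0.077).

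The smooth muscle marker mean was 11.56, 10.78, 13.22, 7.56 and 12.31 in the vehicle females and 15.77, 7.36, 14.71, 11.45 and 13.85 with rosiglitazone. The urothelium marker mean was 14.66, 14.96, 14.50, 15.09 and 14.82, against 13.68, 15.16, 14.45, 14.64 and 14.56. Rosiglitazone replicate 1 had both the highest muscle and the lowest urothelium value. With smooth muscle and adipocyte marker means as covariates, 5 of the 6 members kept their call, all except Srebf2 at -0.57. Across 116 arrays Aacs, Elovl6 and Fdft1 varied with the urothelium marker mean at r = 0.71, 0.65 and 0.59. Srebf2, Mvd and Fasn varied with it at 0.24, 0.22 and 0.13. The part of the urothelium and fibroblast markers in these falls was not tested. Of 10 single leave-outs, 0 ended the call of Aacs, 3 that of Fdft1, 5 of Fasn, 7 of Elovl6, 8 of Mvd and 10 of Srebf2. With the failing arrays included, 0 of the 6 were called, and with the mean of all probes Elovl6 lost its call.

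In males at day 90, 0 members were called with rosiglitazone, where 0.0315% of tested genes were called, and 0 had an unadjusted p under 0.05 in limma. Aacs was at 11.27, 10.82, 10.08, 10.85 and 11.17 in vehicle males and at 11.20, 10.93, 11.16, 10.28 and 11.26 with rosiglitazone, a difference of 0.13 (SE 0.31). A comparison added after these values were seen set the female against the male difference at that day. It called 0 of 33 members, where 0.0393% of tested genes were called, and 6 members had an unadjusted p under 0.05 (18.2%, against 8.31% of all tested genes). The Aacs differences were -1.56 apart (SE 0.44, adjusted p 0.317). With array weights, which give less weight to arrays that fit their group poorly, the same comparison called 6 of 33 members (18.2%), all with a lower difference in females, where 8.82% of tested genes were called. They were Aacs at -1.50 (SE 0.30, adjusted p 0.000656 in limma), Insig1, Scd2, Scap, Elovl6 and Mvd. The sex difference thus passed the threshold with array weights and with none of the other settings tried. Tissue markers lay apart between the sexes in this comparison too, as given above. With smooth muscle and adipocyte marker means as covariates, the median over the 33 members was -0.38, against -0.53 without. The part of the urothelium markers was not tested.

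In females after 3 days of high-dose pioglitazone, Mvk and Acaca were lower, and both calls were lost without single animals. Mvk was at 9.52, 9.19, 9.54, 9.38 and 9.51 in vehicle and at 9.44, 6.82, 9.17 and 9.38 in the 4 treated animals, where replicate 3, which stood apart, held the 6.82. The difference was -0.73 (SE 0.24, adjusted p 0.0457 in limma) and -0.10 (adjusted p 0.837) without the 5 arrays. Acaca was at 8.04, 10.24, 6.59, 6.51 and 6.87 in vehicle and at 6.61, 4.94, 6.59 and 7.09 in treated animals. The difference was -1.34 (SE 0.39, adjusted p 0.0239), -0.88 (adjusted p 0.316) without the 5 arrays and -0.69 (adjusted p 0.214) without vehicle replicate 2. With array weights its direction turned, to 0.09 (adjusted p 0.873). The smooth muscle marker mean was 11.26 ± 2.32 (SD, n = 5) in these vehicle females and 14.26 ± 1.34 (n = 4) in the treated ones. With smooth muscle and adipocyte marker means as covariates, 2.37% of tested genes were called, Acaca stayed called at -1.24 (adjusted p 0.0445), and Mvk at -0.58 was not (adjusted p 0.13). The part of the urothelium and fibroblast markers was not tested.

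Over all days, the sex difference of the drug effect called 0 of 33 members for each treatment in limma, with 2, 0 and 0 at an unadjusted p under 0.05 for the low dose, high dose and rosiglitazone, where 0% of tested genes were called. The F test across days called 0 members as well, where 0.00787%, 0.0157% and 0.0393% of tested genes were called, with 0, 2 and 11 at an unadjusted p under 0.05. All tested genes stood at 3.99%, 5.93% and 10.7% by that measure, and the 11 members with rosiglitazone at 33.3%. The lowest adjusted p was that of Aacs with rosiglitazone at 0.245. With array weights the F test called Mvd and Srebf2 with rosiglitazone, where 1.05% of tested genes were called. In vehicle females against males 0 members were called and 3 had an unadjusted p under 0.05 (9.09%, against 9.5% of all tested genes), where 0.149% of tested genes were called.

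In vehicle animals Scap rose from day 3 to day 28. It was at 11.80, 11.53, 11.92, 11.63 and 11.76 in females at day 3 and at 12.32, 12.40, 12.45, 12.32 and 12.46 at day 28, without overlap. In males it was at 11.95, 12.45, 11.52, 11.92 and 11.51 and then at 12.87, 11.96, 12.51, 12.17 and 12.55, with overlap. The difference was 0.60 (SE 0.16, adjusted p 0.016 in limma), the 1 member called where 6.45% of tested genes were, and 3 of 5 single leave-outs of vehicle replicates ended the call. The tissue markers changed as well. Of the 12 urothelium markers 3 were called higher, with 9 at an unadjusted p under 0.05 (median 0.45), while 7 of 10 fibroblast markers (median -1.95) and 2 of 8 adipocyte markers were called lower. The 9 smooth muscle markers lay below 0 with 0 called (median -1.49). Scap stayed called with smooth muscle and adipocyte marker means as covariates, at 0.48 (adjusted p 0.0486). It varied with the urothelium marker mean at r = 0.72 across 116 arrays, and the part of the urothelium and fibroblast markers in its rise was not tested. From day 28 to day 90, 0 members were called, where 0.0315% of tested genes were, and 0 had an unadjusted p under 0.05.

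Members differed widely in how far animals of a group spread. The SD within groups was 0.27 for Elovl1, the elongase of very long chains, and 1.20 for Scd1, the stearoyl-CoA desaturase, whose values ran from 7.92 to 15.83. Insig1 was second at 0.69. The median SD was 0.41 in the sterol branch and 0.46 in the fatty acid branch, against 0.40 over all tested genes.

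Deviations of animals from their group mean moved together across the sterol branch. Over 116 arrays the median Pearson r of its 120 pairs was 0.53, with 120 above 0, against 0.03 over pairs of all tested genes. It was 0.52 without the 5 arrays and 0.45 after the muscle and adipocyte marker means were removed. The urothelium and fibroblast marker means were not removed, and their part in these correlations was not tested. The 66 fatty acid pairs had a median of 0.23 with 42 above 0. The closest pair was Fdps with Sc5d, the lathosterol desaturase, at r = 0.82 (Spearman rho 0.78, permutation adjusted p 2.81e-05, and 0.81 without the 2 farthest arrays). Of all 528 member pairs, 392 passed an adjusted p of 0.05 by permutation. The share over pairs of all tested genes was not computed, so this count is no result about the members. Aacs and Fads2 varied with the sterol genes at medians of 0.61 and 0.58, while Scd1 had a median of -0.23 and Elovl5, an elongase of polyunsaturated chains, -0.14. After the muscle and adipocyte marker means were removed, the Scd1 median was 0.02, with 12 of 16 above 0, and that of Elovl5 -0.12.

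**Figure D4:**
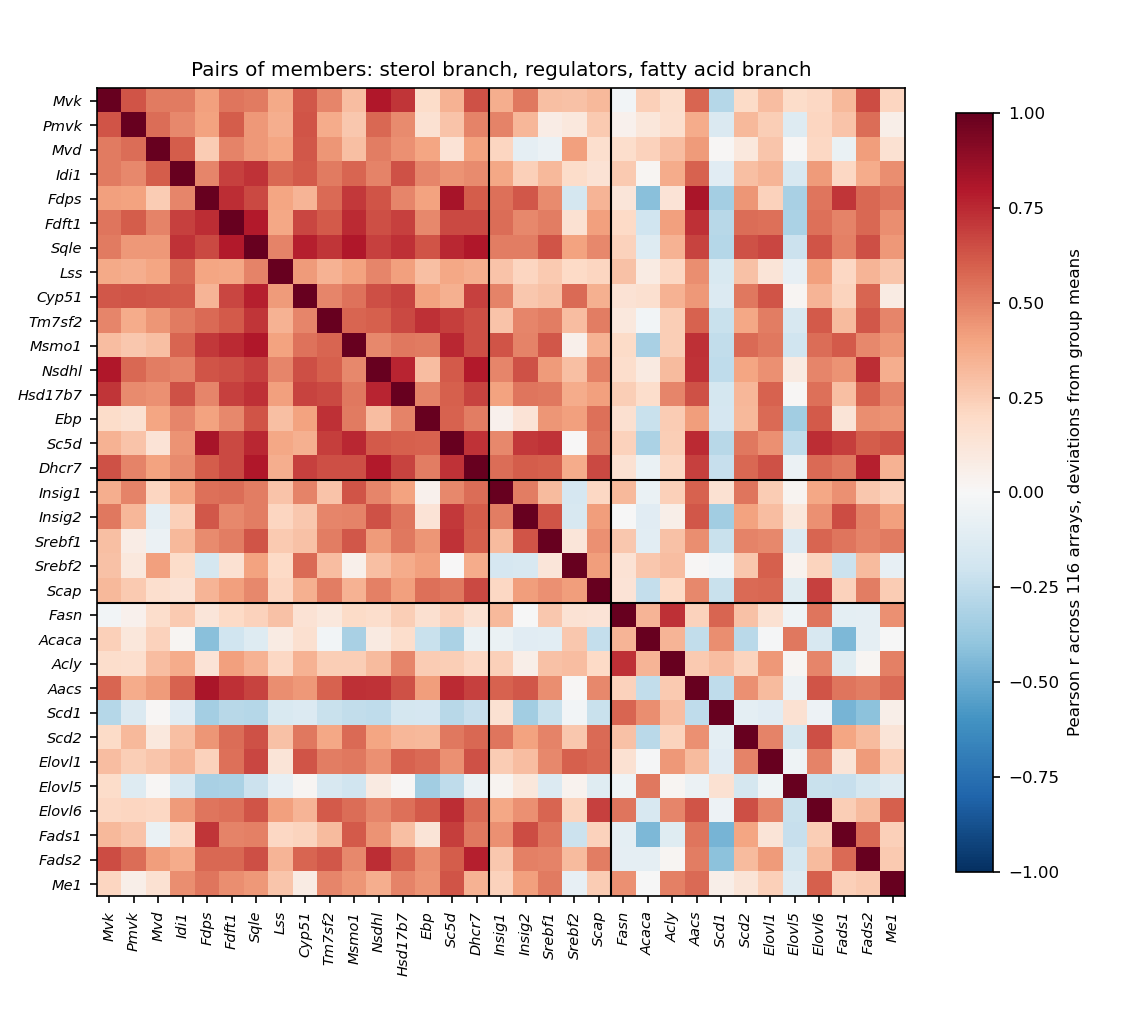
Pearson r between members (rows and columns) over 116 arrays, computed on deviations from group means, from blue (-1) to red (1), with lines between the branches. The sterol block at top left is positive in 120 of 120 pairs, while Scd1, Acaca and Elovl5 form pale or blue stripes.

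The same deviations followed the tissue markers. Against the urothelium marker mean, Dhcr7 had r = 0.81 (rho 0.76, permutation adjusted p 2.83e-05, 0.79 without the 2 farthest arrays) and Sc5d r = 0.80 (rho 0.77, permutation adjusted p 2.83e-05, 0.79 without them). Against the smooth muscle mean, Sc5d had r = -0.60 and Insig2 r = -0.57. The smooth muscle slope was negative and called for 25 of 33 members, 13 of 16 in the sterol branch. The share of all tested genes with a called slope was not computed. Of all other tested genes, 66.7% had a negative r with the smooth muscle mean. Scd1 followed the adipocyte mean at r = 0.84 (rho 0.67, permutation adjusted p 2.83e-05, 0.79 without the 2 farthest arrays). With both means in the model, the adipocyte slope was called for Scd1 at 0.94 (adjusted p 2.36e-20 in limma), Fasn at 0.23 (adjusted p 3.95e-05) and Acaca at 0.26 (adjusted p 0.00532), and for no sterol gene. The median r of the sterol branch was 0.59 with urothelium and -0.46 with smooth muscle markers, against 0.18 and -0.21 over all other tested genes. The lowest median was that with fibroblast markers, -0.52 against -0.19 over all other tested genes. Of 99 relations of members with urothelium, smooth muscle and adipocyte markers, 82 passed an adjusted p of 0.05 by permutation. The share over all tested genes was not computed for these relations.

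**Figure D5:**
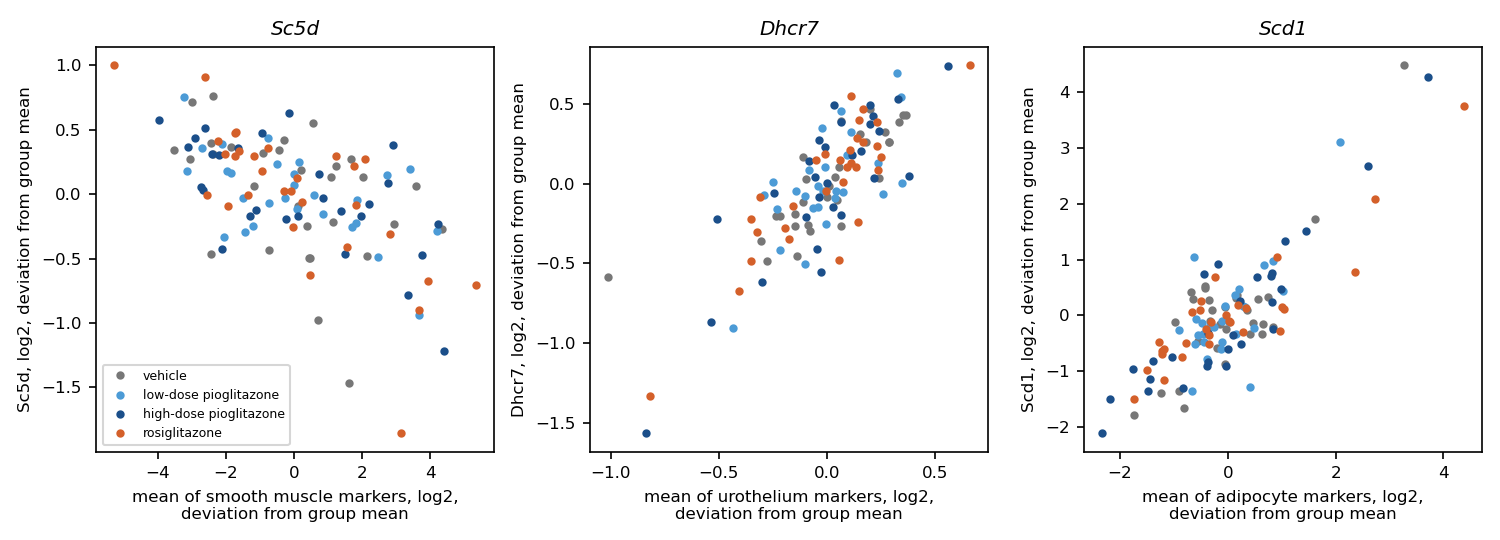
Deviation from the group mean of Sc5d, Dhcr7 and Scd1 (log2, vertical) against that of the smooth muscle, urothelium and adipocyte marker means (log2, horizontal), 1 point per array, coloured by treatment. Sc5d falls with muscle markers (r = -0.60), Dhcr7 rises with urothelium markers (r = 0.81) and Scd1 with adipocyte markers (r = 0.84).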

How the data were processed

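The authors deposited normalised log2 signals of single-colour arrays. limma is named per the submitters' processing notes, without a version, and the background correction and normalisation are not given in the sources used here. Symbols came from the platform annotation, updated through RefSeq accessions (17237 probes matched, 2885 symbols changed). The lowest 25 percent of genes by mean signal (log2 under 5.26) were left out. A model of 24 group means on 116 arrays was fitted with limma 3.58.1 in R 4.3.3 (eBayes with a trend, 92 residual degrees of freedom). Benjamini-Hochberg adjustment was over 12713 genes per comparison. The code was also run on simulated data with independent normal noise for each gene. Those data lack the correlated genes, outlying arrays and tissue differences seen here, so that run cannot show how the calls hold under them. Intervals are 95 percent. Correlations used 100000 permutations within groups, the smallest possible p being 1e-05, with Python 3.11.15. Precision is set by how many animals each group holds. The members, lists and tests were chosen with earlier results of these data known. All members were named. Values by animal or by treatment group are given for called members, the 3 members of each branch with the smallest adjusted p, Insig1, Srebf1 and Srebf2; Idi1, Scd2 and others outside this rule were chosen after their values were seen. Alternatives covered filter, normalisation, probes, failing arrays, variance prior, array weights, replicate block, marker covariates and left-out replicates. Leaving out the 5 arrays was added after seeing the data. The marker covariates were the smooth muscle and adipocyte means only, so the part of the other tissue markers was not tested. Rosiglitazone was not tested against pioglitazone because doses differ.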

Additional observations from a re-analysis of the deposited data

Results flagged for a closer look

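Among 16 combinations of a called member and a group examined, 2 had an animal far from the others of its group by Dixon's test, and chance gives about 1 in 20. The lowest Mvk value in high-dose females at day 3 was 6.82, with the gap making up 0.90 of the group's range. The lowest Fdft1 value in rosiglitazone females at day 90 was 10.15, with a gap of 0.86 of the range. Both animals were among the 5 arrays that stood apart. The Mvk difference was -0.10 and the Fdft1 difference -0.41 without those arrays.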

How the results depend on the processing

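Shares in brackets are those of all tests or tested genes called in the same setting. For members called in the arm comparisons (8), failing arrays included gave 14 (1.8%), array weights 21 (4.43%) and single left-out replicates 2 to 14. All 14 with the failing arrays were falls in high-dose females at day 3, where 31.7% of tested genes were called. For members called in the day comparisons (2), no filter, 75th percentile centring and no variance trend gave 1 each (0.7%, 1.08% and 1.02%), failing arrays included 0 (0.884%), array weights 24 (6.64%), leaving out the 5 arrays 6 (2.25%) and left-out replicates 0 to 4. For members called with low-dose pioglitazone (2), no filter and failing arrays included gave 0 (1.75% and 0.496%), array weights 11 (24.9%), leaving out the 5 arrays 5 (7.62%) and left-out replicates 0 to 3. For members called with high-dose pioglitazone (1), failing arrays included gave 0 (2.47%), array weights 6 (14.9%), marker covariates 3 (8.96%), leaving out the 5 arrays 3 (10.9%) and left-out replicates 0 to 2. For members called with rosiglitazone (1), failing arrays included gave 0 (1.07%), array weights 5 (15.7%), marker covariates 3 (8.37%), leaving out the 5 arrays 3 (14.8%) and left-out replicates 0 to 1. For members called for high against low pioglitazone dose (0), array weights gave 9 (12.4%) and left-out replicates 0. For members called for a sex difference of the effect over all days (0), each alternative gave 0. For members called for female against male effect of rosiglitazone at day 90 (0), array weights gave 6 (8.82%) and each other alternative 0. For members called for a difference of the effect across days (0), array weights gave 2 (1.05% with rosiglitazone). For members called among vehicle animals, female against male (0), array weights gave 1 (3.31%). For members called among vehicle animals, across days (1), quantile normalisation, 75th percentile centring and marker covariates gave 2 each (3.58%, 3.52% and 2.02%), failing arrays included 0 (0.535%) and left-out replicates 0 to 2. Acaca, high-dose pioglitazone, female, day 3, reversed to 0.0878 with array weights, which weight the arrays unequally. The cause of the other changes was not tested.

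With the replicate block, members called with low-dose pioglitazone numbered 4 (4.48%), members called with rosiglitazone 2 (5.77%) and members called among vehicle animals, across days 0 (3.39%). Animals of the same number had a median correlation of 0.03 over 168 pairs (-0.68 to 0.73), against -0.00 for other numbers (-0.83 to 0.85). Whether animals of the same number shared handling was not tested.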
